A study of Homo sapiens with 4 samples.

Results

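Transcripts of the nuclear-encoded subunits of the respiratory chain were compared between *SOX2* knockdown and mock knockdown in the human glioblastoma cell line LN229. *SOX2* encodes an HMG-box transcription factor of stem cells, and the comparison addresses how subunit transcripts differ when it is depleted. Members were all gene probes whose symbol is that of a complex I (NDUFA, NDUFB, NDUFC, NDUFS, NDUFV), complex II (SDHA to SDHD), complex III (UQCR), complex IV (COX4 to COX8) or complex V (ATP5) gene. This rule found 100 of 33096 gene probes, which fall into 82 of 27739 features, a feature being the mean of all probes with 1 Celera gene ID. Of these features, 1 (*COX4NB*, now *EMC8*) is named after a neighbouring gene and encodes no subunit, which left 81 features of 80 genes: 37 of complex I, 4 of complex II, 7 of complex III, 18 of complex IV and 15 of complex V.

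Both groups were LN229 cells in DMEM. In one, cells received siRNA against *SOX2*, and in the other a control siRNA without a target (mock knockdown). The study's methods give an siRNA concentration of 100 nM, harvest 72 h after transfection, and 2 biological replicates, each with its own transfection and array. Which of the study's *SOX2* siRNAs went onto the arrays is not given in the sources used here, and all arrays rest on 1 cell line and on transient knockdown. The labels are not uniform, as their treatment field gives a line of colon cancer, SW620, where all other fields give LN229. Of 10 glioma and mesenchymal markers, 8 exceeded 3 times the noise (S/N over 3) on each of the 4 arrays, *VIM*, *SPARC* and *CD44* among them, while *CHI3L1* passed on none and *FN1* on 2. The summed signal of these 10 was 173 and 219 in mock and 173 and 160 in *SOX2* knockdown cells. *GFAP*, also among the 8, had a mean signal of only 0.132 in mock and 0.137 in knockdown cells. Of 11 colon epithelial markers, *VIL1* and *TFF3* passed on all 4 arrays, and *KRT20*, *MUC2* and the probe of *CDH1* passed on none. *EPCAM*, *CEACAM5* and *GPA33* passed on 1 array and *CDX1*, *CDX2* and *LGALS4* on 2. The probe of *CDH1* was taken alone because its gene ID also averages a bright *RPL23A* probe. The summed signal of the 11 was then 0.545 and 0.491 in mock and 0.451 and 0.751 in *SOX2* knockdown cells.

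The respiratory chain passes electrons from NADH (complex I) and succinate (complex II) through ubiquinone to complex III, cytochrome c and complex IV, which reduces oxygen. Complexes I, III and IV pump protons across the inner mitochondrial membrane, and complex V, the ATP synthase, lets them back in to make ATP. Complex II is built from nuclear genes only, whereas the other complexes combine nuclear-encoded subunits with a few that mitochondrial DNA encodes. None of the mitochondrial-encoded subunits was found on the array under its symbol.

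Each signal was divided by the 75th percentile of the features on its array, and changes are log2 ratios of *SOX2* knockdown to mock. *SOX2* itself gave 0.454 and 0.682 for mock and 0.204 and 0.145 for knockdown. The groups did not overlap, with a log2 change of -1.69 (SE 0.28, limma adjusted p = 0.114), so that the targeted gene moved as its label says without passing an adjusted p of 0.05. Features were tested if both arrays of a group had S/N over 3, which 18378 did. Of the 81 subunit features, 78 were tested, and each of these exceeded that S/N on every array. The 3 others, *COX4I2*, *COX7A1* and *COX7B2*, did not reach an S/N of 3 on any array. Per array, 63.5% to 68.9% of gene probes had S/N over 3.

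Most subunit transcripts had lower signals after *SOX2* knockdown than after mock knockdown, the differences were small, and no single member passed the test. The median log2 change of the 78 features was -0.18, a level 11.5% below mock, against a median of 0.00 over all features tested. Of the 78, 62 lay below 0 and 16 above, with a range from -0.47 to 0.24, whereas 49.7% of all features lay below 0. For 40 members both knockdown signals were below both mock signals, which is 51.3% of members and 25.7% of all features. The opposite held for 2 members, while 21.6% of all features were higher without overlap. The other 36 overlapped. With scaling to the array median in place of the 75th percentile, 22 members (28.2%) were lower without overlap, against 21.0% of all features. No member had an adjusted p under 0.05, which also held for all 18378 features (0% called; limma, Benjamini-Hochberg over all features), and the smallest adjusted p of a member was 0.206. At an unadjusted p under 0.05 (limma), 3 members were lower (3.85%) and 0 were higher, while 9.07% of all features were lower and 8.12% higher at that p. This count of 3 ran from 0 to 9 over the alternative settings, where 3.34% to 13.6% of all features were lower. No member was past 2-fold, the cutoff used in the study's methods, which 2.38% of all features passed, and none was past 1.5-fold, which 9.86% passed. In a bulk sample, fewer cells of a type and less RNA per cell cannot be told apart.

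The mock arrays differed from each other in these genes, and the size of the group's shift rested on mock replicate 2. Taking each member's deviation from its own mean over the 4 arrays on the log2 scale, the median was -0.02 on mock replicate 1, 0.18 on mock replicate 2, -0.06 on knockdown replicate 1 and -0.10 on knockdown replicate 2. Mock replicate 1 thus lay nearer to the knockdown arrays than to the other mock array. Of the 78 members, 56 had their highest signal on mock replicate 2, which was the highest array for 31.3% of all features. Without mock replicate 2, the median of the members was -0.07 against -0.06 over all features, and 48 members lay below 0 and 30 above. Without mock replicate 1, the median of the members was -0.28. Leaving out an array of the knockdown group gave -0.19 and -0.16. The spread of the mock arrays is that of 2 samples, and whether it comes from the transfection, the RNA or the array was not tested.

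**Figure D1:**
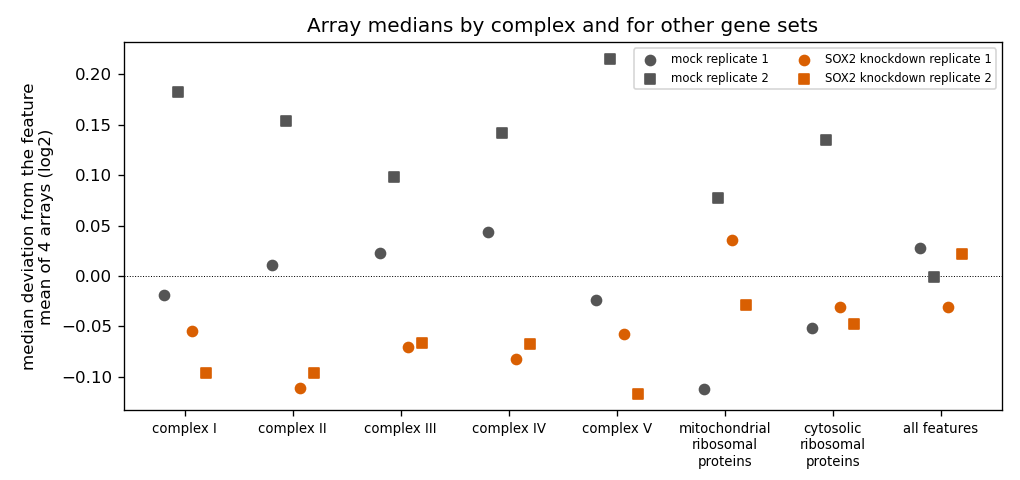
Median deviation (log2) of each array from the feature mean over the 4 arrays, for the tested features of complexes I to V, for mitochondrial and cytosolic ribosomal protein genes and for all features. Grey points are mock arrays and orange points *SOX2* knockdown arrays, circles replicate 1 and squares replicate 2. Mock replicate 2 stands above the other arrays in all 5 complexes, between 0.10 (complex III) and 0.22 (complex V), and in both sets of ribosomal protein genes, while over all features it lies at 0.00.

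By complex, the medians were -0.19 for complex I (28 of 37 features below 0), -0.21 for complex II (3 of 4), -0.20 for complex III (5 of 7), -0.07 for complex IV (11 of 15) and -0.17 for complex V (15 of 15). Members lower without overlap numbered 20, 3, 3, 7 and 7 in that order. These were 54.1%, 75%, 42.9%, 46.7% and 46.7% of the tested features of each complex, against 25.7% of all features. The 2 members that were higher without overlap were *NDUFS1* of complex I and *COX7A2L* of complex IV. Complex IV had the median nearest to 0, and complex V had no member above 0. The 4 complex IV features above 0 were *COX7A2L* (0.24), *COX6B2* (0.23), *COX6A2* (0.22) and 1 of the 2 *COX6A1* features (0.05). *COX6A2* and *COX6B2* are tissue-restricted forms, and a median without such forms was not taken. A difference between complexes was not tested. Without mock replicate 2, the medians were -0.11 for complex I, -0.11 for complex II, -0.12 for complex III, -0.04 for complex IV and -0.04 for complex V. The median over all features was then -0.06.

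**Figure D2:**
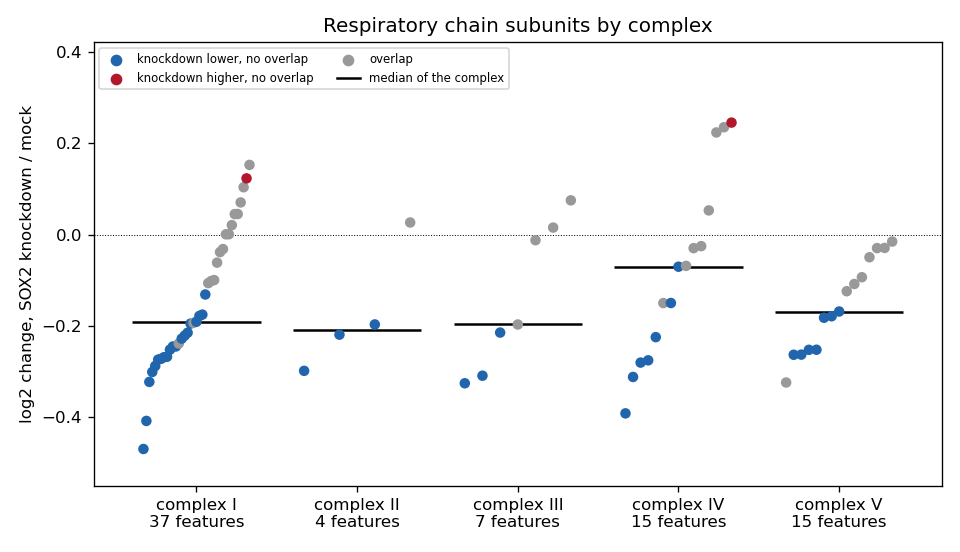
Log2 change (*SOX2* knockdown over mock) of each tested subunit feature, ordered within its complex, with a black line at the median of the complex. Blue points are lower in both knockdown arrays than in both mock arrays, red points higher in both, and grey points overlap. The lowest point is *NDUFA1* at -0.47 and the highest *COX7A2L* at 0.24.

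The 4 members described first among those lower without overlap belong to complexes I, III and IV and are each read by 1 probe. *NDUFA1*, an accessory subunit in the membrane arm of complex I, gave 16.5 and 18.6 for mock and 12.7 and 12.6 for knockdown. The knockdown arrays nearly coincided and lay under both mock arrays, a log2 change of -0.47 (SE 0.13, limma adjusted p = 0.206). *NDUFB1*, another accessory subunit of that arm, gave 13.2 and 13.0 for mock and 9.83 and 9.94 for knockdown. Both groups were tight and stood apart, with a log2 change of -0.41 (SE 0.12, limma adjusted p = 0.214). *COX7B*, a small accessory subunit of complex IV, gave 22.0 and 24.9 for mock and 18.6 and 17.1 for knockdown, a log2 change of -0.39 (SE 0.14, limma adjusted p = 0.271). These 3 were the members with an unadjusted p under 0.05 (limma). *UQCRC2*, a core protein of complex III, gave 1.62 and 2.17 for mock and 1.54 and 1.46 for knockdown. Here mock replicate 2 was the high array and mock replicate 1 was close to the knockdown arrays, with a log2 change of -0.33, which was -0.11 without mock replicate 2. *NDUFA1*, *NDUFB1* and *COX7B* ranged over 16 alternative settings from -0.55 to -0.26, from -0.44 to -0.25 and from -0.48 to -0.30.

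Only *COX7A2L* and *NDUFS1* were higher without overlap among the 78 members. *COX7A2L*, placed in complex IV by its symbol, encodes a protein that joins complexes III and IV in supercomplexes. It gave 3.31 and 3.65 for mock and 4.20 and 4.04 for knockdown, a log2 change of 0.24 (SE 0.13, limma adjusted p = 0.438). *NDUFS1*, the large iron-sulfur subunit of complex I, gave 2.22 and 2.42 for mock and 2.49 and 2.57 for knockdown, a log2 change of 0.12. Its second probe did not reach an S/N of 3 on any array, so the value rests on 1 probe. The direction of both genes was the same in all 16 settings, as it was for 46 of the 78 members, 43 of them lower and 3 higher. Among these settings, the other floor, the S/N filters, the variance trend and the replicate blocks left the members' log2 changes as they were. How many of all features kept their direction was not counted. *COX4NB*, which the rule picked up and which is no subunit, was also higher without overlap, at 0.23.

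**Figure D3:**
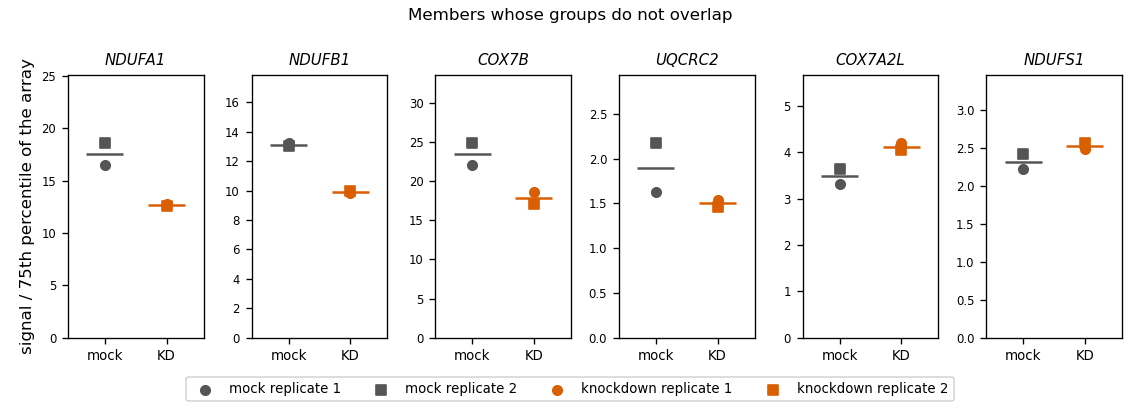
Signal relative to the 75th percentile of the array (linear axis from 0) for 4 members that were lower and the 2 that were higher without overlap. Grey marks the mock arrays, orange the *SOX2* knockdown arrays, circles replicate 1, squares replicate 2 and lines the mean of 2 arrays. In *UQCRC2* mock replicate 2 lies apart, while in *NDUFB1* the mock arrays nearly coincide.

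The catalytic core of complex I showed both directions. *NDUFV1*, which binds NADH, gave 3.59 and 4.44 for mock and 3.23 and 3.41 for knockdown, and *NDUFV2*, its iron-sulfur partner, gave 8.13 and 8.71 for mock and 7.50 and 7.25 for knockdown. Both were lower without overlap, at -0.27 and -0.19. Among other core subunits, *NDUFS8* was lower without overlap at -0.27, with 4.36 and 4.65 for mock and 3.71 and 3.74 for knockdown. *NDUFS3* (-0.11) and *NDUFS7* (-0.06) overlapped. With *NDUFS1* above 0, these 6 core members thus ran from -0.27 to 0.12. *NDUFA4*, counted here by its symbol, was later placed in complex IV and is now named *COXFA4*. It gave 30.9 and 40.5 for mock and 37.8 and 33.1 for knockdown, a log2 change of 0.00.

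In complex II, 3 of the 4 subunits were lower without overlap, as were 25.7% of all features. *SDHA*, the flavoprotein that oxidises succinate, gave 1.95 and 2.32 for mock and 1.85 and 1.87 for knockdown (-0.20). The membrane anchors *SDHC* (7.29 and 7.14 for mock, 5.81 and 5.93 for knockdown) and *SDHD* (1.61 and 1.76 for mock, 1.44 and 1.45 for knockdown) had log2 changes of -0.30 and -0.22. In *SDHC* the mock arrays lay close together. *SDHB*, the iron-sulfur subunit, overlapped, with 2.94 and 3.26 for mock, 3.19 and 3.12 for knockdown and a log2 change of 0.03.

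In complex III the core proteins parted, *UQCRC2* at -0.33 and *UQCRC1* at 0.07, the latter with overlapping groups (4.46 and 5.38 for mock, 5.50 and 4.84 for knockdown). *UQCRFS1*, the Rieske iron-sulfur protein that hands electrons to cytochrome c1, was level on all 4 arrays at 2.17 and 2.23 for mock and 2.24 and 2.21 for knockdown. The small subunits *UQCRQ* (-0.31) and *UQCRH* (-0.21) were lower without overlap, and *UQCR* (now *UQCR11*, -0.20) and *UQCRB* (-0.01) overlapped. *CYC1*, which encodes cytochrome c1 of this complex, is not matched by the symbol rule and is not counted among the members. It overlapped at 0.01, on a feature that is also annotated to *C21orf45*.

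In complex IV the nuclear-encoded subunits surround a catalytic core that mitochondrial DNA encodes. *COX5B* was lower without overlap, at 9.75 and 9.98 for mock and 7.98 and 8.28 for knockdown (-0.28), and so was *COX5A*, by less (-0.07). *COX4I1*, the general form of subunit 4, overlapped at -0.07, and its partner *COX4I2*, known from lung and from hypoxia, was one of the 3 features that were not tested. The muscle and heart form *COX7A1* and the testis form *COX7B2* were likewise below an S/N of 3, whereas their general partners *COX7A2* (-0.22) and *COX7B* (-0.39) were lower without overlap. The tissue-restricted *COX6A2*, *COX6B2* and *COX8C* were detected and overlapped, at 0.22, 0.23 and -0.03. Of their general partners, *COX8A* was lower without overlap at -0.28 and *COX6B1* overlapped at -0.15. *COX6A1* is split over 2 features, which gave 0.05 and -0.03.

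In complex V all 15 features lay below 0, from -0.32 to -0.02, and 7 were lower without overlap (46.7%, against 25.7% of all features). The catalytic head is built of *ATP5A1* (9.92 and 11.5 for mock, 9.74 and 9.30 for knockdown) and *ATP5B* (17.5 and 21.0 for mock, 16.1 and 16.1 for knockdown), which were lower without overlap at -0.17 and -0.25. Mock replicate 2 was the highest array in both. *ATP5C1*, the turning gamma shaft, had the largest difference of the complex at -0.32 and yet overlapped, since mock replicate 1 (5.88) lay under knockdown replicate 2 (5.92) and mock replicate 2 was at 8.31. *ATP5O*, which ties head and stalk, was at -0.03. *ATP5G1*, *ATP5G2* and *ATP5G3* encode the same mature c-ring protein. *ATP5G2* (17.8 and 20.0 for mock, 15.4 and 16.0 for knockdown) and *ATP5G3* (10.5 and 12.5 for mock, 10.3 and 9.97 for knockdown) were lower without overlap at -0.26 and -0.18, and *ATP5G1* overlapped at -0.12.

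The probes behind a feature limited some values. Of the 81 subunit features and *COX4NB*, 61 rest on 1 probe and 21 on several, and 18 of the 21 have at least 2 probes with S/N over 3 on all 4 arrays. In 6 of the 18 these probes lay on both sides of no change, namely *UQCRFS1*, *COX6A1*, *NDUFS5*, *NDUFB11*, *SDHC* and *ATP5F1*. For *SDHC*, the probes named after the gene gave -0.32 and -0.30, and a dimmer probe without a symbol gave 0.11. Gene ID averaging also brought 9 probes without a subunit symbol into 9 features, such as a *HUWE1* probe into *ATP5I*. By their own probes these 9 features lay between -0.31 (*SDHC*) and 0.01 (*NDUFS5*), each within 0.05 of the averaged value. The probes of *NDUFS5* are annotated to the ribosomal protein gene *RPL10* as well, so its signal cannot be given to 1 gene. Several subunit genes have processed pseudogenes, and cross-hybridisation was not tested.

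Subunit features were among the brightest on the arrays, 44 of 78 in the brightest 10% of tested features by mean signal and 17 in the next 10%. The median log2 change of all features in the brightest 10% was -0.05, and that of the 44 members in it -0.18. The largest raw reading of a member probe was 1.99e+06 and the lowest array maximum 3.42e+06, so no member read at the top of the scanner's range. The median within-group SD of members was 0.124 on the log2 scale, against 0.153 over all features and 0.106 and 0.112 over all features of the brightest and the next 10%. The median size of the change, signs left aside, was 0.19 over members and over all features. Mitochondrial ribosomal protein genes, which make the machinery for the subunits encoded in mitochondria, had a median of 0.03 over 78 features. Of these, 14 were lower (17.9%) and 21 higher (26.9%) without overlap, against 25.7% and 21.6% of all features. Cytosolic ribosomal protein genes, also bright, had a median of -0.07 over 117 features, 39 of them lower (33.3%) and 8 higher (6.84%) without overlap. Whether the subunits differ from either set was not tested.

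The promoters of the member genes were searched for letters that factors known to act on respiratory genes recognise, since the members lay mostly on one side of 0. RefSeq windows (GRCh38.p14, 250 bases before to 50 bases after the start) were at hand for 66 of the 80 genes. The NRF-1 letters CGCANGCGC were found on either strand in 21 windows (31.8%), against 7.47% of all 35116 windows. Members were counted with 1 window per gene, while all windows were neither reduced to 1 per gene nor limited by gene type. The shares are thus not strictly alike. The ETS letters CCGGAAGT, as bound by GABPA, were in 9 (13.6% against 4.14%), the YY1 letters AAGATGGCG in 8 (12.1% against 1.75%), and the SOX letters CATTGTT in 2 (3.03% against 3.33%). Members with NRF-1, ETS or YY1 letters had a median log2 change of -0.19 (31 genes) and those with none of them -0.16 (34 genes). The 120 bases before the start are shown for the lowest and the highest member without overlap, and for the lowest member of each complex that holds such letters there, with the letters in capitals. On the X chromosome, *NDUFA1* is at chrX:119871712-119871831 (+ strand), and *COX7A2L* is at chr2:42361218-42361337 (- strand). Those with letters are *NDUFA13* at chr19:19516105-19516224 (ETS), *SDHD* at chr11:112086753-112086872 (overlapping NRF-1 matches and ETS), *UQCRQ* at chr5:132866522-132866641 (ETS), *COX5B* at chr2:97645942-97646061 (ETS) and *ATP5C1* at chr10:7788057-7788176 (overlapping NRF-1 matches), all on the + strand. Each line runs from 5′ to 3′ and ends at the base before the start.
NDUFA1: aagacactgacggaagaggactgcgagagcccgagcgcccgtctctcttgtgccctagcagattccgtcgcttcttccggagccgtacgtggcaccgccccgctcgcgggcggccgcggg
COX7A2L: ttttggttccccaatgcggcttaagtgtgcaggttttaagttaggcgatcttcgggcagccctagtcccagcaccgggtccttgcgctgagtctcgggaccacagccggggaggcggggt
NDUFA13: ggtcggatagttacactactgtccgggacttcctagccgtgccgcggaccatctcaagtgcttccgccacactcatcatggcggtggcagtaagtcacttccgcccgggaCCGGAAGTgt
SDHD: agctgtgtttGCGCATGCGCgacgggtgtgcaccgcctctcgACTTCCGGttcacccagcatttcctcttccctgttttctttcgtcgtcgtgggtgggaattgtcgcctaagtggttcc
UQCRQ: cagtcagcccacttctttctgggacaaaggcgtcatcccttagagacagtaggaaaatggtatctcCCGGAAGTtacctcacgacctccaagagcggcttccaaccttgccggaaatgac
COX5B: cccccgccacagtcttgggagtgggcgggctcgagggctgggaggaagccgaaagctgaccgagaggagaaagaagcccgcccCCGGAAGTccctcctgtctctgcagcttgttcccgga
ATP5C1: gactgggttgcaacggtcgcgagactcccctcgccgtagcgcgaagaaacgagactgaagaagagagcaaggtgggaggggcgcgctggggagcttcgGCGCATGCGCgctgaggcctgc

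*NDUFA1*, with the lowest log2 change, and *COX7A2L*, with the highest among those without overlap, showed none of these letters in the stretch. The other 5 were shown for having the lowest changes among members with such letters, so their direction is fixed by the choice. *NDUFS1*, higher without overlap, holds the ETS letters farther from the start. A match is a description of the letters and not of binding.

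The factors that recognise these letters, and other genes around the respiratory chain, went in both directions. *NRF1* overlapped at -0.39 (0.108 and 0.168 for mock, 0.114 and 0.0931 for knockdown). *GABPA* was higher without overlap, at 0.131 and 0.133 for mock and 0.177 and 0.167 for knockdown, a log2 change of 0.38 (limma adjusted p = 0.240) on a feature that includes pseudogene probes. *YY1* (-0.10) and *ESRRA* (0.10), an orphan receptor of energy metabolism, overlapped. *MYC*, a growth factor-responsive activator, gave 0.862 and 1.03 for mock and 1.58 and 1.54 for knockdown, a log2 change of 0.72 (SE 0.15, limma adjusted p = 0.138). *TFAM*, which packages and transcribes mitochondrial DNA, was higher without overlap at 0.30. Of the coactivators, *PPARGC1A* was not tested, with S/N over 3 on 1 array, and *PPARGC1B* was lower without overlap at -0.13.

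Assembly factors, which build the complexes without staying in them, lay on both sides of 0. Over 37 of them the median was -0.01, with 13 lower (35.1%) and 11 higher (29.7%) without overlap. Over all features these shares were 25.7% and 21.6%. Together with regulators, electron carriers and other mitochondrial genes, 10 lists held 92 genes found on the array, of which 90 were tested and 1 was past 2-fold. This was *SDHAF4* (*C6orf57* on the array), which helps join SDHA with SDHB in complex II. It gave 0.551 and 0.622 for mock and 0.288 and 0.275 for knockdown. The groups stood far apart relative to their spread, with a log2 change of -1.06 (SE 0.13, limma adjusted p = 0.101), where 0.909% of all features were past 2-fold lower. *SDHAF3*, which acts on the iron-sulfur subunit of complex II, was also lower without overlap at -0.45 (0.953 and 1.30 for mock, 0.860 and 0.771 for knockdown). The 12 complex I factors ranged from -0.45 (*ACAD9*) to 0.30 (*NDUFAF6*) with a median of 0.03, the 4 complex III factors from -0.30 to -0.07 with a median of -0.22, the 15 complex IV factors from -0.32 to 0.49 with a median of 0.10, and the 4 complex V factors from -0.20 to 0.24 with a median of -0.07.

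Electron carriers outside the complexes were mixed. *ETFB* and *ETFDH*, which bring electrons from fatty acid oxidation to ubiquinone, were lower without overlap. *ETFB* gave 4.74 and 5.89 for mock and 3.41 and 3.34 for knockdown (-0.65, limma adjusted p = 0.172), and *ETFDH* gave 0.541 and 0.559 for mock and 0.454 and 0.399 for knockdown (-0.37). *CYCS*, cytochrome c, was lower without overlap at -0.13. *ETFA*, the partner of *ETFB*, overlapped at -0.11, and *HCCS*, listed with these genes, was higher without overlap at 0.40. Of 9 tested genes of coenzyme Q synthesis, *COQ2*, which attaches the tail to its ring, was higher without overlap at 0.54, with 0.783 and 0.795 for mock and 1.20 and 1.09 for knockdown. The median of the 9 was 0.00, that of 16 genes of mitochondrial DNA maintenance and transcription 0.00, and that of 13 tricarboxylic acid cycle genes -0.05. In the cycle, 3 of the 13 were lower and 0 higher without overlap, against 25.7% and 21.6% of all features.

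**Figure D4:**
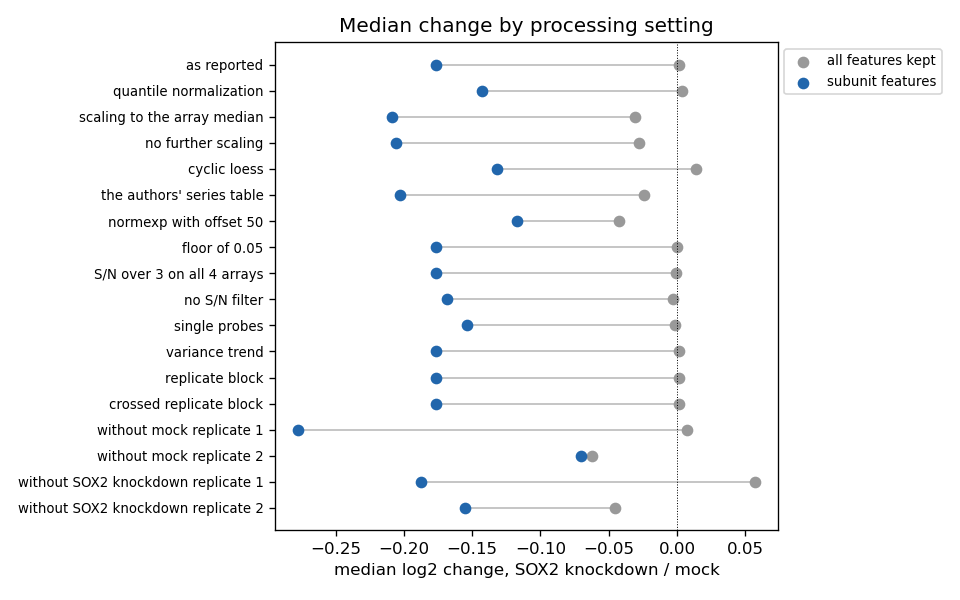
Median log2 change (*SOX2* knockdown over mock) of the subunit features (blue) and of all features tested (grey) under the processing as reported and under each alternative. The blue point lies below 0 in all settings. The gap between the points closes to -0.01 without mock replicate 2 and is widest, at -0.29, without mock replicate 1.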

How the data were processed

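RNA of 4 LN229 samples (2 mock, 2 *SOX2* knockdown; 250 ng each) was hybridised to 1-colour Applied Biosystems arrays. The deposited scanner files give signal intensities as normalized by the authors' software, with an S/N score and flags per the file headers. They also hold an assay-normalized signal, whose ratio to the signal used differed between 2 blocks of array rows. The ratios were 5112 and 5297 on mock replicate 1 and 3648 and 3719 on mock replicate 2. They were 4049 and 4019 on knockdown replicate 1 and 4662 and 4545 on knockdown replicate 2. An effect of these blocks on the changes was not tested. A second deposited table holds the authors' signal as a ratio to the median of each probe. The study's methods name hg18 for its analyses, while the array files name no build, and the software version is not given in the sources used here. Control probes and 210 probes with a flag of 5000 or more were left out. Intensity and S/N were averaged by Celera gene ID, divided by the 75th percentile of the array, floored at 0.01 and log2-transformed. limma 3.58.1 in R 4.3.3 (lmFit, eBayes, two-sided, no block) tested 18378 features, with Benjamini-Hochberg adjustment, after a check on simulated data. Summaries and figures used Python 3.11.15, pandas 2.3.3 and matplotlib 3.10.9. The number of arrays limits the precision, and p-values measure the spread of these samples only. Alternatives covered scaling, background, floor, S/N filter, single probes, variance trend, a replicate block and each array left out. Crossed pairing was added after the data were seen. Members, lists and tests were chosen with earlier results of these data known. Named genes are *SOX2*, the 5 largest members per direction without overlap (2 existed among the higher), core subunits, paralogues, members with disagreeing probes, regulators and list genes past 2-fold; other names were chosen after their values were seen. A result of that rule is not reported here. All 81 member symbols matched RefSeq, 18 under a newer name.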

Additional observations from a re-analysis of the deposited data

How the results depend on the processing

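No subunit feature had an adjusted p under 0.05, and none was past 2-fold, under any of 17 alternatives. With a 1.5-fold cutoff on the values as reported, none was past it. The medians of all subunits and of complexes I to V stayed below 0 in each setting, but in some the median over all features did too. With normexp that median was -0.042, beside -0.036 for complex III and -0.044 for complex IV. Without mock replicate 2 it was -0.062, and complexes IV (-0.038) and V (-0.041) lay nearer to 0 than all features. *SOX2* passed an adjusted p of 0.05 (limma) with scaling to the array median (log2 change -1.72), with no further scaling (-1.72) and with the authors' series table (-1.72), settings that leave subunits lower without overlap at 22, 21 and 20 in place of 40. Those are 28.2%, 26.9% and 25.6% of members, against 21.0%, 20.0% and 20.1% of all features, and none of the subunits then had an unadjusted p under 0.05 (0, 0 and 0 lower, against 6.25%, 6.13% and 6.12% of all features). That count, 3 as reported, was 9 with a floor of 0.05 and 9 with a variance trend, where 10.99% and 9.59% of all features were lower. With normexp 1 was lower and 1 higher, against 8.45% and 5.48% of all features. The median of complex III was -0.036 with normexp and -0.16 with cyclic loess, that of complex IV -0.040 with quantile normalization, -0.026 with cyclic loess and -0.044 with normexp, and that of complex V -0.083 with normexp. The median over members minus that over all features was -0.18 as reported, -0.15 with quantile normalization and with cyclic loess, and -0.07 with normexp.

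With 1 array left out, the arm with 1 sample was assumed to vary like the other. The median of all subunits then ran from -0.278 to -0.070, that of complex I from -0.28 to -0.11, of complex II from -0.28 to -0.11, of complex III from -0.178 to -0.083, of complex IV from -0.119 to -0.038 and of complex V from -0.304 to -0.041. The values nearest to 0 came without mock replicate 2, except in complex III, where they came without mock replicate 1. The count lower without overlap ran from 42 to 63, which rises by construction with fewer arrays (33.3% to 42.9% of all features), and the count lower at an unadjusted p under 0.05 from 0 to 5 (3.34% to 8.79% of all features). *SOX2* ran from -1.98 to -1.40. The cause was not tested.

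With the replicate number as a block, 0 subunits were lower at an unadjusted p under 0.05, against 4.50% of all features. Deviations of same-numbered arrays had r = -0.499 over 18378 features. Whether the numbers pair the samples was not tested. Crossed pairing gave 8 lower, against 13.6% of all features.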
